A study of Mus musculus with 36 samples.

Results

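H3K36me2 in neurospheres of control (Ctrl) and Kdm2b conditional knockout (cKO) mice was compared across genes, using 4 of the 36 samples of the series. These are the 2 Ctrl and the 2 cKO libraries labelled as P0 neurosphere H3K36me2 ChIP-seq, and 24 samples of the series have an island file. Ctrl mice carried Kdm2bfl/+ or Kdm2bfl/fl. The cKO mice were Kdm2bEmx1-delta-CxxC, in which Emx1-Cre, active in dorsal telencephalic progenitors and their progeny, removes the CxxC zinc finger of KDM2B and leaves truncated protein behind. Neurospheres are floating cultures of neural progenitor cells, here enriched from the hippocampus at postnatal day 0 and kept in FGF2 and EGF. The labels do not say whether a library came from its own animal or culture, so the spread between libraries of one genotype may be technical. The question was whether loss of the CxxC domain altered where this mark lies.

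H3K36me2 is dimethylation of lysine 36 of histone H3. It is laid down by the NSD and ASH1L methyltransferases as broad domains over gene bodies and intergenic DNA, and the JmjC domain of KDM2A and KDM2B can remove it. The CxxC zinc finger binds unmethylated CpG-rich DNA and brings KDM2B, with its Polycomb partners, to CpG island promoters.

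Each library was summarised as islands, stretches of DNA with more reads than the background, each with a read count. On the 19 autosomes there were 107292 and 109719 islands in Ctrl and 148096 and 93383 in cKO (replicates 1 and 2). Counts inside islands were 20518511 and 19788367 in Ctrl and 21946455 and 10569166 in cKO. The cKO replicates thus lay on either side of both Ctrl libraries in island number and in counts, and cKO replicate 2 held the fewest of both. The smallest count of any island was 29 and 28 in Ctrl, against 25 and 20 in cKO. A stretch without an island has an unknown count, not a count of 0, and numbers of sequenced reads were not used here.

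Islands covered 370 and 431 Mb in Ctrl and 496 and 349 Mb in cKO. Most of this lay outside promoters in every library, but promoters made up only 3.23% of the autosomes. They held 2.34% and 1.71% of the covered length in Ctrl and 3.65% and 0.968% in cKO. Gene bodies of protein-coding genes were inside islands over 21.5% and 23.7% of their length in Ctrl and over 29.6% and 18.1% in cKO. Intergenic DNA was covered over 11.5% and 14.5% in Ctrl and over 14.4% and 12.7% in cKO. Both classes overlapped between the genotypes, and the log2 ratio of the cKO mean to the Ctrl mean was 0.08 for gene bodies and 0.05 for intergenic DNA (two-sided exact permutation p = 1 for each, n = 2 and 2). With 2 libraries against 2, this test cannot give a p below 0.333.

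Promoters, taken as 2 kb on each side of the transcription start site (TSS), differed most between the cKO replicates. They were covered over 11.2% and 9.54% of their length in Ctrl and over 23.4% and 4.37% in cKO. The means were 10.4% ± 1.18 (SD, n = 2) and 13.9% ± 13.5 (SD, n = 2), and the exact permutation p was 1. The log2 ratio of 0.42 was decided by single libraries, since it was -1.25 without cKO replicate 1 and 1.17 without cKO replicate 2. All 19 autosomes also overlapped between the genotypes in their covered share.

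**Figure D1:**
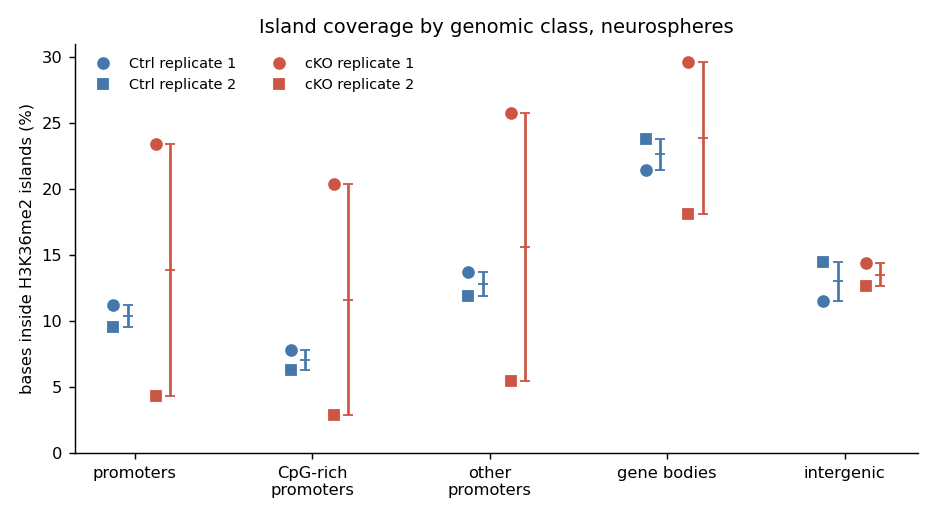
Share of bases inside H3K36me2 islands (%, vertical axis) for each genomic class, with 1 point per library and, beside the points, the mean and the range of the 2 libraries of a genotype. For promoters the Ctrl libraries (11.2% and 9.54%) fall between the cKO libraries (23.4% and 4.37%).

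CpG-rich promoters, where the CxxC domain binds, were examined separately. CpG-rich promoters were those with more than 50% GC and more than 0.6 of the CpG count expected by base composition in the central 1 kb, 9507 of the 20807 tested. Islands covered 7.83% and 6.34% of these promoters in Ctrl and 20.4% and 2.89% in cKO. Other promoters were covered more in every library, at 13.7% and 11.9% in Ctrl and 25.8% and 5.45% in cKO. The cKO minus Ctrl difference for CpG-rich promoters was 4.54 percentage points (exact permutation p = 1), smaller than the SD of 12.4 between the cKO libraries. It was -4.20 without cKO replicate 1 and 13.3 without cKO replicate 2.

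Around CpG-rich TSSs the mark dipped in all 4 libraries. Within 1 kb of the TSS, islands covered 5.94% and 3.58% of bases in Ctrl and 15.6% and 1.01% in cKO. At 5 to 10 kb they covered 18.6% and 18.4% in Ctrl and 35.3% and 11.2% in cKO. The ratio of TSS to flank was 0.320 and 0.195 in Ctrl, against 0.442 and 0.0908 in cKO, so the dip was shallowest in cKO replicate 1 and deepest in cKO replicate 2. At other promoters the ratio was 1.1 and 0.937 in Ctrl, against 1.13 and 0.732 in cKO, which is no dip or a slight one. Over all promoters the ratio did not separate the genotypes (0.602 ± 0.105 in Ctrl and 0.553 ± 0.275 in cKO, SD, n = 2 each, exact permutation p = 1).

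**Figure D2:**
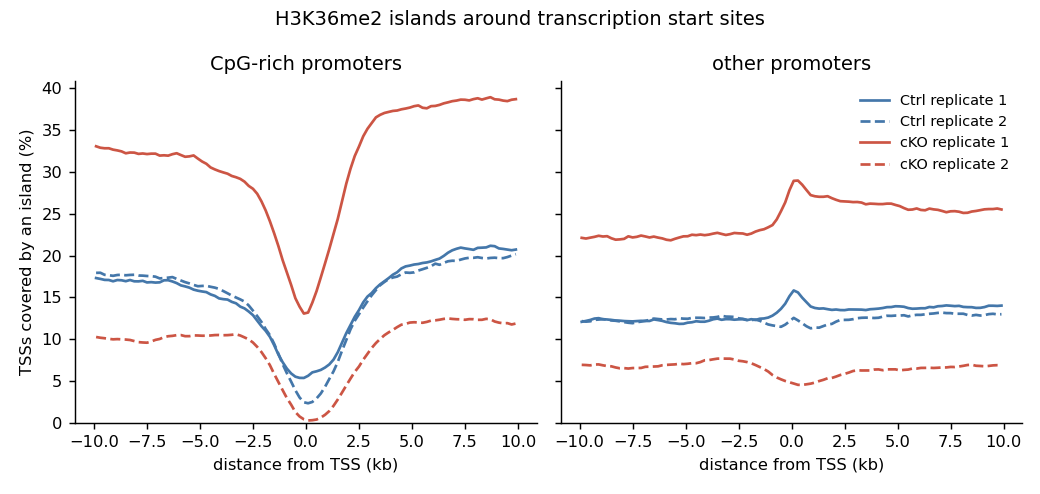
Share of TSSs covered by an island (%, vertical axis) against distance from the TSS (kb), for CpG-rich promoters (left) and other promoters (right), with 1 line per library. All 4 lines dip at CpG-rich TSSs, and the Ctrl lines run between cKO replicate 1 above and cKO replicate 2 below.

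The cKO replicates stood furthest apart in genes under 30 kb. Bodies of genes under 10 kb (5177 genes) were covered over 9.11% and 6.55% in Ctrl and over 29.7% and 2.57% in cKO. Genes of 10 to 30 kb (6181 genes) had 15.6% and 12.3% in Ctrl and 34.5% and 5.00% in cKO, the widest gap between the cKO replicates among the 5 classes. For genes of 100 to 300 kb (1831 genes) the values were 28.0% and 31.3% in Ctrl and 34.5% and 23.4% in cKO. For genes above 300 kb (541 genes) they were 17.3% and 22.7% in Ctrl and 20.2% and 23.0% in cKO. Ctrl and cKO overlapped in each of the 5 length classes.

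The share of covered length in long islands was lower in both cKO libraries, but their number was not. Islands of at least 10 kb held 29.3% and 30.1% of the covered length in Ctrl and 23.3% and 14.4% in cKO, so both cKO libraries lay below both Ctrl libraries. The means were 29.7% ± 0.566 and 18.9% ± 6.26 (SD, n = 2 each), with an exact permutation p of 0.333, the smallest possible here. The cKO minus Ctrl difference was -15.3 percentage points without cKO replicate 1 and -6.41 without cKO replicate 2. Islands over 20 kb held 12.3% and 11.4% in Ctrl and 7.63% and 2.29% in cKO. Islands of at least 10 kb numbered 6182 and 7690 in the Ctrl libraries, against 7109 and 3635 in cKO, and spanned 108 and 130 Mb against 116 and 50.4 Mb. In number and length cKO replicate 1 thus lay between the Ctrl libraries, and its lower share came with its larger covered length of 496 Mb. The limits of 10 and 20 kb were chosen after the widths had been seen. Median width overlapped between the genotypes, with 2.2 and 2.6 kb for Ctrl against 2.2 and 3.0 kb for cKO (log2 ratio 0.12, exact permutation p = 1).

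Stretches of at least 20 kb that were unbroken in both Ctrl libraries numbered 646. Of their length, cKO replicate 1 covered 95.8% and cKO replicate 2 covered 30.7%. The same search in the 2 cKO libraries found 18 stretches, of which Ctrl covered 96.2% and 97.5%. The longest Ctrl stretch, of 125 kb, lay inside the immune signalling gene Cmip. The next, of 99.6 kb, overlapped the inositol phosphate kinase gene Itpk1 over 95.6 kb. The others extended well beyond the gene they overlapped most, with 27.8 of 74.8 kb in the Wnt ligand gene Wnt7b, 37.6 of 74.4 kb in the semaphorin receptor gene Plxnd1 and 56.3 of 73 kb in Spsb1, which encodes a ubiquitin ligase adaptor. In these 5 stretches cKO replicate 1 kept 96.5% to 100% of the length and cKO replicate 2 kept 2.42% to 40.3%. Within these stretches the shortfall was thus mainly in cKO replicate 2. They were picked for full cover in both Ctrl libraries, so any other library could only be equal or lower. The same replicate held the fewest counts in islands, and the part of depth was not tested.

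Islands were also less dense in cKO. Counts per kb of island were 55.5 and 45.9 in Ctrl and 44.3 and 30.3 in cKO, both cKO libraries lying below both Ctrl libraries (log2 ratio -0.44, exact permutation p = 0.333). The log2 ratio was -0.51 in promoters, -0.45 in gene bodies and -0.43 in intergenic DNA. Within the bases that lay inside islands in all 4 libraries, counts per kb were 57.1 and 49.5 in Ctrl and 47.9 and 31.4 in cKO. The difference between Ctrl replicate 2 and cKO replicate 1 was small beside the gap between the cKO replicates. These counts are not scaled for depth, and the smallest island count moved the same way (28 or more in Ctrl, 25 or less in cKO). Sequencing depth and genotype cannot be told apart here.

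**Figure D3:**
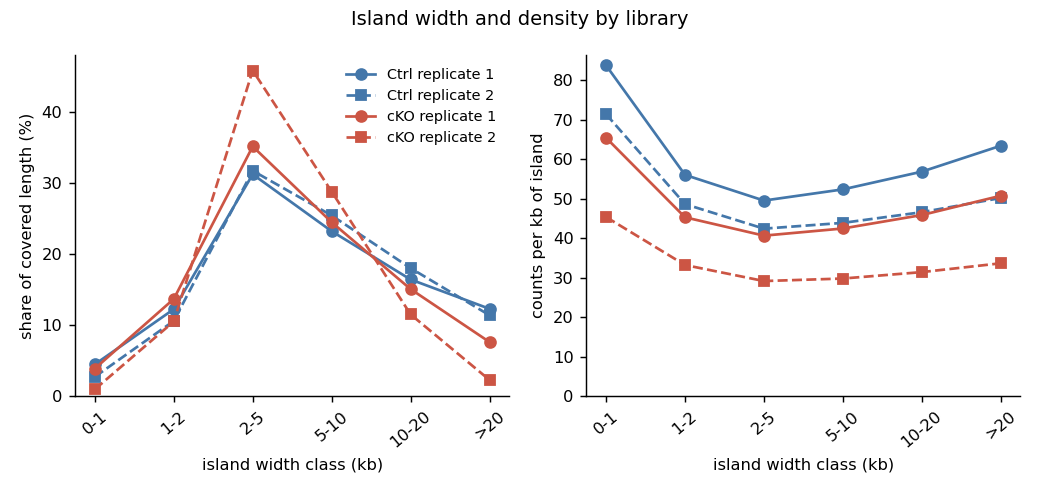
Left, share of the covered length (%) held by islands of each width class (kb); right, counts per kb of island in the same classes, with 1 line per library. In the class above 20 kb the share is 12.3% and 11.4% in Ctrl and 7.63% and 2.29% in cKO, and cKO replicate 2 has the fewest counts per kb in every class.

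Genes were then sorted by the libraries in which they carried an island. A promoter was called gained when both cKO libraries and neither Ctrl library had an island in it, and lost in the opposite case. Of 20807 promoters, 305 (1.47%) were gained and 161 (0.774%) were lost. Islands in cKO replicate 1 alone marked 4098 promoters, while 1065 had islands in all 4 libraries and 10107 in none. Of 18697 gene bodies, 200 (1.07%) were gained and 92 (0.492%) were lost, and 5201 had islands in all 4 libraries. No test of replicated values applies to these counts. The balance of promoters turned under other settings, with 34 gained and 92 lost when 50% of the window had to be covered, and 236 gained and 255 lost with islands kept to equal covered length. Windows of 1 kb on each side gave 149 gained and 126 lost.

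Gained promoters were more often CpG-rich than lost ones. CpG-rich promoters made up 208 of the 305 gained (68.2%) and 66 of the 161 lost (41.0%), against 29.4% of those with islands in all 4 libraries and 45.7% of all promoters. Median GC content in the 1 kb around the TSS was 60.2% for gained, 52.3% for lost and 55.1% for all promoters. GC content of the islands as a whole was 47.4% and 46.2% in Ctrl, against 47.9% and 43.5% in cKO, and its part in these shares was not tested. H3K27me3 islands of both Ctrl neurosphere libraries touched 12.5% of gained and 13.0% of lost promoters, against 22.9% of all. Most gains were partial or close to existing domains. At least 50% of the window was covered, on average over the cKO libraries, in 60 gained promoters, and 144 had a Ctrl island within 2 kb of the window, while 26 had none within 20 kb.

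The 6 gained promoters with the largest coverage were those of Cnpy1, Sox6, Gm15557, 1110004F10Rik, Reep1 and Vamp5. None had an island in Ctrl. The promoter of Cnpy1, a canopy family gene linked to FGF signalling, was covered over 100% in cKO replicate 1 and 80.0% in replicate 2, with 177 and 118 counts. Sox6, a SoxD transcription factor gene, was covered over 100% and 65.1%. Its window overlaps that of the divergent gene 1110004F10Rik (100% and 50.1%), so these are not independent. Gm15557 had 100% and 56.8%. Reep1, which shapes the endoplasmic reticulum in neurons, had 100% and 46.0%, and the SNARE gene Vamp5 had 100% and 43.3%. In each of the 6, coverage was complete in cKO replicate 1 and partial in cKO replicate 2. In the Sox6 body, islands covered 6.18% and 15.2% in Ctrl and 14.4% and 33.2% in cKO.

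Lost promoters with the largest coverage were those of Tmem238l, Gimap9, Loxl2, C9, Baz1a and Dnah5, and none had an island in cKO. Tmem238l was covered over 90.9% and 100% in the Ctrl libraries. Gimap9, a GTPase gene of immune cells, was covered over 90% and 98.2%, with 207 and 160 counts. Loxl2, a lysyl oxidase of the extracellular matrix, had 85.0% and 78.3%. The complement gene C9 had 78.2% in both. Baz1a, a chromatin remodelling subunit, had 58.7% and 81.3%, and the ciliary dynein gene Dnah5 had 40% and 100%. Loxl2 kept islands in its body in every library (38.9% and 27.9% in Ctrl, 69.2% and 12% in cKO), so the loss there was of the promoter window only. Of these 6, only Loxl2 was CpG-rich, and of the 6 gained promoters above only those of Reep1 and Vamp5 were.

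The start regions of leading gained and lost promoters are shown because the CxxC domain reads CpG, and CpG dinucleotides are in capitals. They are RefSeq promoter sequences of build GRCm38.p6, read 5′ to 3′ on the strand of the gene, and hold bases before the RefSeq start. That start lies 18 bp (Cnpy1), 52 bp (Sox6), 96 bp (Tmem238l) and 6 bp (Gimap9) from the GENCODE start used for the promoter windows. The Cnpy1 and Sox6 sequences run past the GENCODE start. Gained are Cnpy1 at chr5:28245789-28246038 (minus strand, 4 CpG) and Sox6 at chr7:116038745-116038994 (minus strand, 9 CpG). Lost are Tmem238l at chr11:66956292-66956541 (plus strand, 5 CpG) and Gimap9 at chr6:48675885-48676128 (plus strand, 8 CpG). The median over 32851 promoters of the RefSeq table was 6 CpG in the 250 bases before the start, with quartiles of 2 and 16, so the 4 windows shown are not among those above the upper quartile in CpG.
Cnpy1: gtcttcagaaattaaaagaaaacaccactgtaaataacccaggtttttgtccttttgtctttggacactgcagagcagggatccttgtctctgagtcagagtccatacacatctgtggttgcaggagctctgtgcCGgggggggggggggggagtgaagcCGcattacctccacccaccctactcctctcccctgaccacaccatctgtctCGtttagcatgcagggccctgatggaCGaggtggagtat
Sox6: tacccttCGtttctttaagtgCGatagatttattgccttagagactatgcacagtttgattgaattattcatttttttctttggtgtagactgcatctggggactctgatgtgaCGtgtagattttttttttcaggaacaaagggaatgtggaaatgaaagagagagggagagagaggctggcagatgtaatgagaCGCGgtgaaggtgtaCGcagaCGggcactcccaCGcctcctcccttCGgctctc
Tmem238l: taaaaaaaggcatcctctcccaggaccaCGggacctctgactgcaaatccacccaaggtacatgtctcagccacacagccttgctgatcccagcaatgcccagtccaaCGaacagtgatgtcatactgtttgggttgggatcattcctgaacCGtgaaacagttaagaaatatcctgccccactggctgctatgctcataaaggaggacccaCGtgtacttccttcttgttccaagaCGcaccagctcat
Gimap9: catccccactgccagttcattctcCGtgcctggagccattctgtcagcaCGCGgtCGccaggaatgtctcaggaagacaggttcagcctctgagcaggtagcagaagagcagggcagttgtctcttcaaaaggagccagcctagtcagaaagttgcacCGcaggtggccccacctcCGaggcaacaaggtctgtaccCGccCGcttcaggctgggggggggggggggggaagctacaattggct

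Gene bodies were ranked by the gap in covered share between the genotypes. Among all bodies, the cKO libraries were both higher than either Ctrl library in 987 (5.28%) and both lower in 938 (5.02%). A gap of at least 25 percentage points was found in 33 bodies in each direction (0.176% each). The 6 widest gaps among bodies of at least 10 kb are described for each direction, and they were picked by this very measure, so no test is given. The sixth gap upward was 26.6 points and the seventh 25.9.

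Upward, Alpk1, a kinase gene that senses bacterial sugars, had 1.11% and 0% of its body inside islands in Ctrl and 42.9% and 40.1% in cKO. Tmem255b was covered over 21.8% and 20.5% in Ctrl and 89.8% and 54.4% in cKO. Proca1 and Trappc3, a vesicle tethering gene, had no island in either Ctrl body. Proca1 reached 73.4% and 30.9% in cKO, and Trappc3 28.4% and 29.4%. Arl6ip5, a gene of the endoplasmic reticulum membrane, had 18.4% and 0% in Ctrl and 46.5% and 63.6% in cKO. Phax, an export adaptor for small nuclear RNA, had 8.41% and 16.3% in Ctrl and 46.7% and 43.0% in cKO. For Alpk1, Trappc3 and Phax the cKO replicates lay within 4 points of each other.

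Downward, Rbp2 (chr9:98486115-98509781), a retinol carrier gene, had 51.1% of its body inside islands in either Ctrl library, against 7.78% and 5.94% in cKO. Slc36a3, of the proton-coupled amino acid transporters, had 59.0% and 63.0% in Ctrl and 18.5% and 0% in cKO. The hyaluronan receptor gene Layn had 34.2% and 55.5% in Ctrl, and Bpifb9a had 49.6% and 33.8%, while neither had an island in a cKO body. Tdrd6, a germ cell gene, had 84.6% in both Ctrl libraries and 55.3% and 0% in cKO. Itgb2l, an integrin gene, had 52.9% and 49.8% in Ctrl and 21.8% and 8.37% in cKO. The Rbp2 promoter stayed inside islands in all 4 libraries (100%, 100%, 100% and 45.0%), so the gap lay downstream of it.

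**Figure D4:**
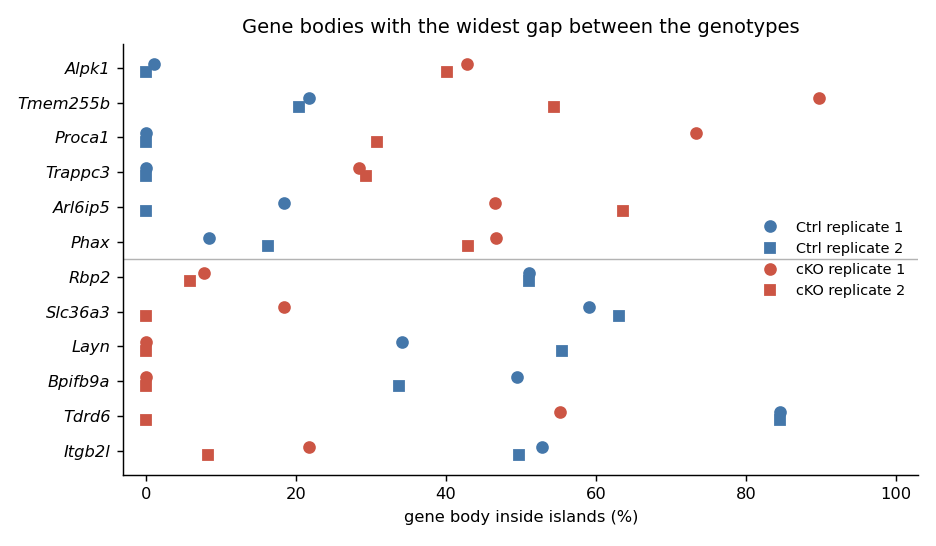
Share of the gene body inside islands (%, horizontal axis) in each of the 4 libraries, for the 6 bodies with the widest gap upward (above the line) and downward (below it) in cKO. In Rbp2 both Ctrl libraries are at 51.1% and the cKO libraries at 7.78% and 5.94%, and in Alpk1 the order is turned.

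Counts were tested where all 4 libraries had an island. With edgeR's quasi-likelihood test and an FDR of 0.05, 0 of 5201 gene bodies (0%), 0 of 1065 promoters (0%) and 0 of 15366 intergenic regions (0%) passed. At an unadjusted p under 0.05 there were 62 bodies higher in cKO (1.19%) and 23 lower (0.442%), 18 promoters higher (1.69%) and 6 lower (0.563%), and 238 intergenic regions higher (1.55%) and 125 lower (0.813%). The biological coefficient of variation was 0.610 for bodies, 0.592 for promoters and 0.389 for intergenic regions. DESeq2's Wald test, run as an alternative, called 4 bodies, all higher in cKO, and 34 intergenic regions. The 4 bodies, named after their values were seen, were Etv1 (log2 fold change 3.74), Snapc1 (4.91), Fgf9 (3.27) and Onecut2 (3.32). Etv1 and Onecut2 encode transcription factors, Snapc1 a subunit for small nuclear RNA transcription and Fgf9 a growth factor. Without cKO replicate 1, edgeR called 1169 bodies, 996 of them lower, and 751 intergenic regions. That fit has 1 cKO library, which is assumed to vary like the Ctrl pair.

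The Rbp2 body held 543 and 452 counts in the Ctrl libraries, against 84 and 37 in cKO. Its log2 fold change was -2.71 ± 0.660 (SE) by edgeR. Rbp2, Phax, Itgb2l and Tmem255b were picked by their gap in covered share, and counts follow the called length, so no p-value is given. The SE was worked back from the edgeR test statistic, so for these genes it carries the same selection and serves as no test. Counts in Phax were 95 and 127 in the Ctrl libraries against 383 and 248 in cKO (log2 fold change of 1.87 ± 0.577, SE). Itgb2l held 551 and 469 counts in the Ctrl libraries, against 171 and 49 in cKO (log2 fold change of -1.91 ± 0.751, SE). Tmem255b had a log2 fold change of 1.67. Within the bases covered in all 4 libraries the log2 fold change was -0.29 for Rbp2, -0.045 for Itgb2l and -0.075 for Tmem255b, so these differences lay mostly in how much of the body was called.

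**Figure D5:**
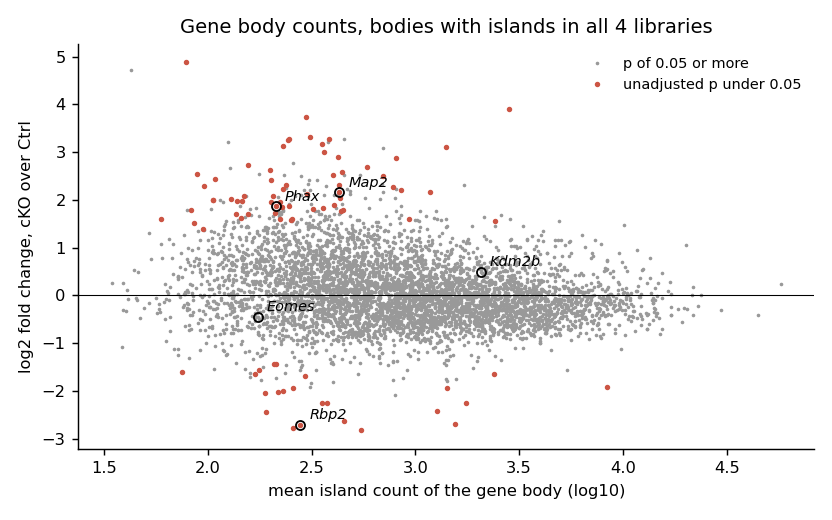
Log2 fold change (cKO over Ctrl, vertical axis) against the log10 mean count for the 5201 gene bodies with islands in all 4 libraries. Red points have an unadjusted p under 0.05 (62 higher, 23 lower), 0 pass the FDR of 0.05, and circles mark 5 named genes, with Rbp2 at -2.71 and Phax at 1.87.

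The genes the study was built around were read next, starting with the targeted gene. The Kdm2b promoter was covered over 19.4% in Ctrl replicate 1 and had no island in the other 3 libraries. The Kdm2b body was covered over 40.6% and 28.7% in Ctrl and 69.6% and 31.1% in the cKO libraries (log2 fold change 0.50 ± 0.690, SE, adjusted p = 1.00, edgeR). Islands of a histone mark do not show the deleted exon, so the genotype labels of these 4 libraries were not checked here. The paper reports deletion of the targeted exon in its RNA-seq of hippocampal neurospheres.

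Wnt signalling drives growth of the hippocampal primordium, and its ligand genes lay under islands in a library-dependent way. So did gene bodies over all genes, of which 45.2% and 41.5% held islands in Ctrl and 68.7% and 32.7% in cKO. Wnt7b had a body covered over 98.2% and 88.7% in Ctrl and 95.4% and 0% in cKO. Wnt3 was covered over 97.2% and 65.5% in Ctrl and 94.8% and 0% in cKO. Both were thus covered in 3 libraries and bare in cKO replicate 2. Wnt6 was covered over 91.0% and 0% in Ctrl and 79.7% and 0% in cKO, and Wnt10a had an island body in cKO replicate 1 alone (92.5%). Sfrp2, a secreted Wnt regulator that the paper describes as either promoting or inhibiting the pathway, had 70.0% and 88.1% in Ctrl and 63.4% and 0% in cKO. The effector gene Lef1 had 59.3% and 33.2% in Ctrl and 74.9% and 38.4% in cKO, with a log2 fold change of 0.41 ± 0.691 (SE, adjusted p = 1.00, edgeR). For these genes the 2 cKO libraries differed more than the genotypes did.

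Among 19 Wnt ligand genes, islands were present in 6 and 3 promoters in Ctrl (31.6% and 15.8%) and 13 and 2 in cKO (68.4% and 10.5%). Over all genes the shares were 21.0% and 19.6% in Ctrl and 44.2% and 11.9% in cKO, with the libraries in the same order. No Wnt ligand promoter was gained or lost, and only Wnt10b had a gained body (0% and 0% in Ctrl, 81.6% and 53.1% in cKO). Over all genes, 1.47% of promoters were gained and 0.774% lost, and 1.07% of bodies were gained and 0.492% lost. Lists this short cannot be told apart from those shares. Among 42 receptors, antagonists and effectors, 14 and 13 promoters had islands in Ctrl and 23 and 2 in cKO. Nkd1, an inhibitor of the pathway, gained its promoter (60.0% and 16.2% in cKO), and Tcf7l2, a transcriptional effector, lost it (10.0% and 65.0% in Ctrl). The Tcf7l2 body stayed covered, over 84.9% and 88.4% in Ctrl and 85.6% and 74.7% in cKO. Of the 3 ligand bodies and 22 others that could be tested, 0 passed the FDR of 0.05 by edgeR.

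Lineage genes were read in the same way, against the same shares over all genes. Pax6, a progenitor transcription factor gene, had a promoter covered over 100% and 87.5% in Ctrl and 100% and 0% in cKO. Eomes, which marks intermediate progenitors, had a body covered over 70.7% and 50.7% in Ctrl and 67.4% and 33.8% in the cKO libraries (log2 fold change -0.45 ± 0.715, SE). Neurod1, a neurogenic factor gene, had no island in its promoter or body in any library. Of 18 progenitor genes, 8 and 7 promoters had islands in Ctrl and 10 and 6 in cKO, and 0 were gained or lost. Of 18 neurogenesis and neuron genes, 5 and 2 promoters had islands in Ctrl and 7 and 1 in cKO. Of 11 glial genes, 6 and 8 had islands in Ctrl and 10 and 4 in cKO.

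Map2, a cytoskeletal gene of neurons, gained its promoter (40% and 13.2% in cKO). Counts in the Map2 body were 154 and 253 in Ctrl and 372 and 944 in cKO, a log2 fold change of 2.17 ± 0.829 (SE, adjusted p = 1.00, edgeR), but 0.12 within the bases covered in all 4 libraries. Neurod6, a factor of young pyramidal neurons, lost islands in both promoter (3.43% and 58.4% in Ctrl) and body (46.0% in both Ctrl libraries). Microglial, endothelial and mesenchymal marker promoters, 5 of each, had islands in 0, 1 and 0 genes in either Ctrl library, in 3, 4 and 3 genes in cKO replicate 1 and in 0 in cKO replicate 2. Over all genes, too, cKO replicate 1 had the highest share of promoters with islands and cKO replicate 2 the lowest. H3K36me2 islands do not measure expression, so these markers name no cells, and their part in the results was not tested.

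Chromatin and growth genes came next, beside 1.47% of promoters gained and 0.774% lost over all genes (bodies 1.07% and 0.492%). Of 12 genes for H3K36 methyltransferases and demethylases, 3 and 4 promoters had islands in Ctrl and 7 and 2 in cKO, and Ash1l, an H3K36 methyltransferase, lost its promoter island (10.5% of the window in both Ctrl libraries). Of 19 PRC1 genes, 5 and 3 had islands in Ctrl and 10 and 2 in cKO, and of 11 PRC2 genes 1 and 2 in Ctrl and 3 and 1 in cKO, with 0 promoters gained or lost. The PRC2 accessory gene Mtf2 had a gained body, with 0.968% and 3.39% of it inside islands in cKO. Among 20 cell cycle genes, 7 and 6 promoters had islands in Ctrl and 12 and 3 in cKO. The cyclin gene Ccna2 gained its promoter (33.8% in both cKO libraries) and the proliferation marker gene Mki67 lost it (5.98% and 40% in Ctrl). Of 24 ribosomal protein genes, 4 and 1 promoters had islands in Ctrl and 8 and 0 in cKO. Over all genes the shares were 21.0% and 19.6% in Ctrl and 44.2% and 11.9% in cKO, and the lists were read against these.

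With all 4 libraries, intergenic regions showed more losses than gains. Islands of the 4 libraries were merged into regions, of which 69675 touched no protein-coding gene or promoter. Of these, 1366 (1.96%) were gained and 2575 (3.7%) were lost, and lost regions were narrower (median width 2.0 kb) than gained ones (3.2 kb). More than 100 kb from any TSS lay 58.1% of the gained, 57.3% of the lost and 50.9% of all intergenic regions. The widest gained region, chr4:152721001-152740800, lay 253 kb from the potassium channel subunit gene Kcnab2 and had 19.8 and 16.2 kb inside islands in cKO. At chr5:28131401-28150200, close to the homeobox gene En2 and to Cnpy1 described above, 18.8 and 3.8 kb were covered in cKO. A region near Plppr1 (chr4:48981601-49000400) was covered over 1.0 kb in cKO replicate 1 and 18.8 kb in cKO replicate 2. The widest lost regions were chr6:55547201-55561600 (7.4 and 13.4 kb in Ctrl, nearest the PACAP receptor gene Adcyap1r1), chr11:82660801-82673000 (8.6 and 12 kb, nearest the chaperonin gene Cct6b) and chr19:28726601-28737000 (6.2 and 9.4 kb, nearest the zinc finger gene Glis3). Keeping islands of at least 2 kb gave 821 gained and 1317 lost. Leaving out either cKO library gave more gains than losses (10046 and 9420 without replicate 1, 12696 and 4566 without replicate 2). Without a Ctrl library, losses outnumbered gains (9365 and 2588 without replicate 1, 7054 and 4280 without replicate 2). The genotype with a single library left needs fewer islands for a call. These turns thus cannot show whether single libraries set the balance.

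For the same mark in the P0 hippocampus, from which the cultures derive, fewer bases lay inside islands. Counts inside these islands were 4492862 and 3106793 in Ctrl and 4432455 and 4500576 in cKO, below every neurosphere library. Sequencing depth and source cannot be told apart here. Hippocampus islands covered 6.16% and 4.46% of gene bodies in Ctrl and 6.64% and 6.46% in cKO. They covered 1.99% and 1.44% of promoters in Ctrl and 2.57% and 2.06% in cKO. CpG-rich promoters were covered over 0.436% and 0.353% in Ctrl and 0.768% and 0.541% in cKO. In these tissue measures each cKO library lay above each Ctrl library (exact permutation p = 0.333 each), whereas in neurospheres the genotypes overlapped. Ctrl replicate 2 had the fewest island counts in the tissue. Intergenic coverage overlapped there, at 7.37% and 5.19% in Ctrl and 6.68% and 6.79% in cKO. A test of the cKO effect in neurospheres minus that in hippocampus gave an exact permutation p of 1 for promoters, 1 for CpG-rich promoters and 0.611 for gene bodies (labels permuted within each source, 36 splits). Of the promoters gained in neurospheres, 5 were gained in hippocampus too, which is 1.64% of the neurosphere list and 3.85% of the hippocampus list. Over all promoters, 0.625% were gained in hippocampus and 1.47% in neurospheres. For lost promoters the overlap was 2, or 1.24% and 2.63%, against 0.365% and 0.774% of all. Gene bodies shared 0 of 200 gained and 1 of 92 lost, and 3 gained and 3 lost bodies had the opposite call in hippocampus. Over all bodies, 1.25% were gained and 1.02% lost in hippocampus, and overlaps this small were not tested.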

How the data were processed

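ChIP-seq of H3K36me2 in 2 Ctrl and 2 cKO neurosphere libraries was analysed, grouped by the sample labels. The authors trimmed adaptors with cutadapt, aligned reads to mm10 with Bowtie2 2.4.5, removed duplicates and called islands per library against input with SICER (window 200 bp, gap 600 bp, FDR 0.01; version not given in the sources used here). The deposited values are raw read counts per island, not normalised. Since islands were called per library, counts in islands move with the called length.

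Only autosomal islands were used, with protein-coding genes of GENCODE vM21. Gene bodies exclude the promoter window of the gene and were at least 1 kb. Counts were apportioned by overlapped length, rounded, and tested with edgeR 4.0.16 (R 4.3.3; TMM factors from regions in all 4 libraries; Benjamini-Hochberg adjustment). The SE of a log2 fold change is its absolute value divided by the square root of the edgeR F statistic. DESeq2 1.42.0 was an alternative. One value per library entered each two-sided exact permutation test (Python 3.11.15). The code was tested on simulated data. Counting error was not used, since reads carry no molecular identifiers.

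Named genes were Kdm2b and genes the study names, the 6 gained and 6 lost promoters with the largest coverage, the 6 widest body gaps in each direction, called members of 13 lists (209 of 211 genes matched on autosomes) and the 3 widest intergenic regions in each direction. Sequences shown are those matched among the first 3 promoters in each direction. The comparisons, members and lists were chosen with earlier results of these data known. Alternatives were other island filters, promoter windows, scalings and filters, a replicate block, and leaving out each library.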

Additional observations from a re-analysis of the deposited data

Results flagged for a closer look

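A set of 3 measures moved one way in neurospheres and the other way in hippocampus, in every library, with both cKO libraries on one side of both Ctrl libraries. For counts per kb of island, the log2 ratio of cKO to Ctrl was -0.44 in neurospheres and 0.05 in hippocampus, a difference of -0.50. The smallest island count moved with it in both sources, from 29 and 28 in Ctrl to 25 and 20 in cKO in neurospheres and from 23 and 21 to 27 and 30 in hippocampus, and its part in the result was not tested. For the share of covered length in islands of at least 10 kb, it was -0.65 and 2.09, a difference of -2.75; the hippocampus shares were 1.90% and 0.406% in Ctrl and 2.85% and 6.96% in cKO. The number of such islands overlapped in neurospheres (6182 and 7690 in Ctrl, 7109 and 3635 in cKO), so the lower share in cKO replicate 1 goes with its larger covered length. For the 90th percentile of island width, it was -0.16 and 0.48, a difference of -0.64, and the neurosphere values were 7.2 and 8.2 kb for Ctrl against 6.8 and 7.0 kb for cKO. Measures were flagged because the genotypes separated in opposite directions in neurospheres and hippocampus. That rule fixes the exact permutation p at 0.0556, the smallest that 36 splits within sources allow, so this p adds no support. After Benjamini-Hochberg adjustment over 8 measures p was 0.148.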

How the results depend on the processing

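Single libraries decided most values. Leaving out 1 library gave log2 ratios of covered length from -1.25 to 1.17 in promoters, -0.32 to 0.39 in gene bodies and -0.10 to 0.23 in intergenic DNA, -0.13 to 0.32 for median width, -0.74 to -0.19 for counts per kb and -0.75 to 0.31 for the TSS to flank ratio. The CpG-rich promoter difference ran from -4.20 to 13.3 points and that of islands of at least 10 kb from -15.3 to -6.41. Counts of features gained or lost rise by construction with fewer libraries: promoters gained 507 to 4403 and lost 216 to 1447, bodies gained 290 to 3914 and lost 137 to 1566, intergenic regions gained 2588 to 12696 and lost 4566 to 9420. The edgeR calls ran from 0 to 1169 for bodies, 0 to 0 for promoters and 0 to 751 for intergenic regions, each maximum without cKO replicate 1, where the lone cKO library is assumed to vary like the Ctrl pair. Without Ctrl replicate 2, 1 body (Chmp3) was called.

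With islands of at least 2 kb, the log2 ratio of median width turned to -0.12, promoters gained fell to 196, and intergenic regions were 821 gained and 1317 lost. With islands kept to equal covered length, the gene body ratio turned to -0.0073, promoters lost rose to 255 (236 gained) and bodies lost to 158. The log2 of cKO over Ctrl of the TSS to flank ratio, -0.12 over all promoters, turned to 0.050 at CpG-rich promoters alone. Promoters gained were 149 with windows of 1 kb on each side, and 34 gained and 92 lost when 50% of the window had to be covered. DESeq2's Wald test gave 4 bodies and 34 intergenic regions, and counts within shared bases gave 1 body (Mrps9, lower in cKO), against 0 by edgeR. For these shifts the cause was not tested.

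Scaling within each table moved the median log2 fold change of all bodies from -0.0037 to 0.13 and of promoters from -0.21 to 0.02, and 0 features were called. With the replicate number as a block, 0 bodies, 0 promoters and 0 intergenic regions were called. Deviations of replicates with the same number correlated at 0.31 over 34449 regions, but there are only 2 pairs and no label ties the numbers, so the samples were not treated as paired.

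Among named genes, leaving out 1 library turned the sign of the body log2 fold change of Lef1 (-0.37 to 1.07), Kdm2b (-0.41 to 1.05), Eomes (-1.37 to 0.11), Nkd1 (-2.27 to 3.24) and Tcf7l2 (-0.44 to 0.042). Within shared bases it was -0.0066 for Lef1, -0.12 for Kdm2b, -0.075 for Tmem255b, -0.045 for Itgb2l, -0.29 for Rbp2, 0.12 for Map2, -0.18 for Eomes and -0.08 for Tcf7l2. Without cKO replicate 1, in a fit with 1 cKO library, it was -3.20 for the Rbp2 body, -2.83 for Itgb2l and 2.77 for Map2. Depth outside islands is unknown, which limits any statement on promoters without an island.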

Other observations

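H3K36me2 islands overlapped the Polycomb marks of the same cultures to a degree that varied by library. H3K27me3 islands shared by both libraries of a genotype covered 7.45% of the autosomes in Ctrl and 7.25% in cKO. They held 7.09% and 5.14% of the H3K36me2 bases in Ctrl and 6.37% and 1.23% in cKO. H2AK119ub1 islands shared in the same way covered 3.14% of the autosomes in Ctrl and 4.94% in cKO, and held 6.67% and 5.51% of the H3K36me2 bases in Ctrl and 14.8% and 3.93% in cKO. In both marks the lowest share was in cKO replicate 2.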
